A study of Mus musculus with 16 samples.

Results

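Long intergenic noncoding RNAs (lincRNAs) are transcripts from genes that lie between coding genes, are spliced and polyadenylated much like mRNAs, and are not known to be translated into protein. Some stay near the site where they are made and act on neighbouring genes, some are hosts from which microRNAs or small nucleolar RNAs are cut, and some act on chromatin or splicing elsewhere in the nucleus. Most are made at far lower levels than mRNAs, and in macrophages several of them respond to microbial signals.

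The lincRNAs described here were all the genes that the deposited comparison of beta-glucan with control macrophages assigned to the gene type lincRNA. There were 87 of them among the 3071 genes in that table, or 2.83%. The table held every gene with an adjusted p under 0.05 in the authors' own test, which was 17.9% of the 17130 genes tested, a number worked out from the deposited p, adjusted p and ranks, with 11.6% lower and 6.3% higher with beta-glucan. A lincRNA was therefore in the table because it had already differed between these same libraries, and the folds and tests below describe how it differed and are not independent evidence that it did. LincRNAs that did not pass are not analysed here.

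The cells were macrophages grown from the bone marrow of aged mice of the strain C57BL/6, in a study of trained immunity, the lasting change in innate immune cells after a first stimulus. Marrow cells were cultured for 7 days with M-CSF, which drives them to become macrophages, at 10 ng/mL. The 8 beta-glucan libraries are from cells that then had 10 µg/mL beta-glucan, a polysaccharide of the Candida albicans cell wall, for 24 hours, and the 8 control libraries are from cells given PBS. Both groups rested for a further 7 days before RNA was taken. The age of the mice is given only as aged, and no label ties the libraries to different mice or cultures. The p-values therefore reflect variation among these libraries only, which may be technical. The deposited values correspond to 15492864 to 20738976 effective reads per library.

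Of the 87 lincRNAs, 85 were lower with beta-glucan and 2 were higher. The share that was lower was 97.7%, beside 64.9% of all listed genes and 59.5% of the 2580 listed coding genes. The most abundant one, Malat1, a nuclear RNA that gathers in splicing speckles, fell from 95.2 to 40.5 FPKM (fragments per kilobase of gene length, scaled for depth), and Mir142hg, the host of a microRNA of blood cells, from 35.2 to 12.3 FPKM. The 2 higher ones were Ptgs2os2, known in mouse macrophages as lincRNA-Cox2, and Gm40723, which has no function known from its name.

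The sequences that these RNAs carry or lie beside are given first. Mir142hg (chr11:87755577-87757270, mm10, plus strand) contains the hairpin of miR-142, and Gm26532 (chr8:84208920-84209609, plus strand) begins in the hairpin of miR-24-2 and lies just downstream of those of miR-23a and miR-27a. From these 2 places 5 mature microRNAs are shown, because both lincRNAs fell with an edgeR adjusted p under 0.05. Others annotated there, such as miR-142b and miR-23a-5p, are left out. Those shown are from RefSeq on GRCm38.p6, with the seed, bases 2 to 8, in capitals.
miR-142a-5p: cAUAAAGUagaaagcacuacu
miR-142a-3p: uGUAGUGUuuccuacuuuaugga
miR-23a-3p: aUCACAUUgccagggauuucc
miR-27a-3p: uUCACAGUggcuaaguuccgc
miR-24-3p: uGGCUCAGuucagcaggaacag
No pair of these 5 had the same seed. Counts over a gene or a short precursor do not measure the mature microRNA.

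Promoters are shown for 5 lincRNAs, from 250 bases before to 50 after the start of transcription, again from RefSeq on GRCm38.p6. RefSeq had such a window for 30 of the 87. Ptgs2os2 (chr1:150164899-150165198, minus strand) is shown as the higher one of known function, Malat1 (chr19:5802623-5802922, minus strand) as the most abundant, and Mirt1 (chr19:53464747-53465046, minus strand) for its motifs. Snhg10 (chr12:105032230-105032529, minus strand) and Gm17586 (chr11:120633500-120633799, plus strand) start close to a coding gene that runs the other way. Capitals mark motifs found on either strand.
Ptgs2os2: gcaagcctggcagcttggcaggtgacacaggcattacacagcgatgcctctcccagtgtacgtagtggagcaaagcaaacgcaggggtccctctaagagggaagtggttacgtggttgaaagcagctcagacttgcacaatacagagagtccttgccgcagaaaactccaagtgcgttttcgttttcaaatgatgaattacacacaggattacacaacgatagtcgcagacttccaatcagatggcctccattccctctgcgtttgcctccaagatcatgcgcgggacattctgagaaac
Malat1: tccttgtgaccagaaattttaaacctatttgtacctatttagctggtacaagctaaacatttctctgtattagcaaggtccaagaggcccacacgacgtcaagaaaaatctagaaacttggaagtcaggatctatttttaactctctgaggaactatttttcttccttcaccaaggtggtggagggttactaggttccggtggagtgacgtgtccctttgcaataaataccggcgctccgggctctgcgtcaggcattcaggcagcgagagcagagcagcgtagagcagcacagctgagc
Mirt1: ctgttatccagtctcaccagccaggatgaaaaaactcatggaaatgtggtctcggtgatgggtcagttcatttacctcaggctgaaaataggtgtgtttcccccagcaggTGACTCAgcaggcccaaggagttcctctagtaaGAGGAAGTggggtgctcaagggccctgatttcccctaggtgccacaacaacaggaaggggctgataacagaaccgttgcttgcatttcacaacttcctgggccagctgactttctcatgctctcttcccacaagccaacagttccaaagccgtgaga
Snhg10: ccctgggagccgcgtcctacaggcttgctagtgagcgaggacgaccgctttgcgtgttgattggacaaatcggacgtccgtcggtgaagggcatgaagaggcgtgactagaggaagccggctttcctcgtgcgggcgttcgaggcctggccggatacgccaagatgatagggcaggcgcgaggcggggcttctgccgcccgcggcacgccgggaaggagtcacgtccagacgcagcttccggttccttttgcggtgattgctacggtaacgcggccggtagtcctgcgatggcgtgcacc
Gm17586: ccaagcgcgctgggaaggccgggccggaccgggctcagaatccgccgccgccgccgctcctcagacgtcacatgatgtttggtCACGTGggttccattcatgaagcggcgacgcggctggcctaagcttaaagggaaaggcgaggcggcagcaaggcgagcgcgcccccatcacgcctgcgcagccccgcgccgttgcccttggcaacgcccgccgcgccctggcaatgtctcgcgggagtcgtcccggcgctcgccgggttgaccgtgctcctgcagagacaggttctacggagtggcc
The Mirt1 window held an AP-1 motif (TGANTCA) from base 111 and a PU.1 core (GAGGAAGT) from base 144. AP-1 is the Fos and Jun family and PU.1 the main transcription factor of macrophages. The Gm17586 window held an E-box (CACGTG) from base 84. The other 3 windows held none of the 6 motifs searched, which also included an NF-kappaB motif, a CRE (TGACGTCA) and a TATA box (TATAAA).

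Over the 30 windows, AP-1, the PU.1 core and the E-box were each present in 2. The same motifs were present in 7.81%, 3.20% and 7.15% of all 32817 RefSeq windows. The NF-kappaB motif and the CRE were in 1 window each, beside 1.63% and 1.79% of all windows, and the TATA box was in 7, beside 13.6%. The median number of CG pairs was 6 in the lincRNA windows and 7 in all windows. The Snhg10 and Gm17586 windows held 36 and 39 CG pairs, and only 6.24% and 4.45% of all windows held as many. A match of letters is not evidence of a bound site.

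Abundance set the lincRNAs apart from the coding genes. Per length, their median level was 0.493 FPKM over the 16 libraries, and that of the listed coding genes was 6.48 FPKM. Their median normalized count, the read count divided by the library's size factor, was 21.7, and that of coding genes was 621. A mean of at least 1 FPKM was reached by 29 lincRNAs, or 33.3%, and by 84.8% of the coding genes. Malat1 alone made up 67.3% of the normalized counts of all 87. The lincRNAs were on 19 chromosomes, with 10 each on chromosomes 5 and 10 and 8 on chromosome 8, and had a median transcript length of 2467 bases, beside 4882 for coding genes.

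**Figure D1:**
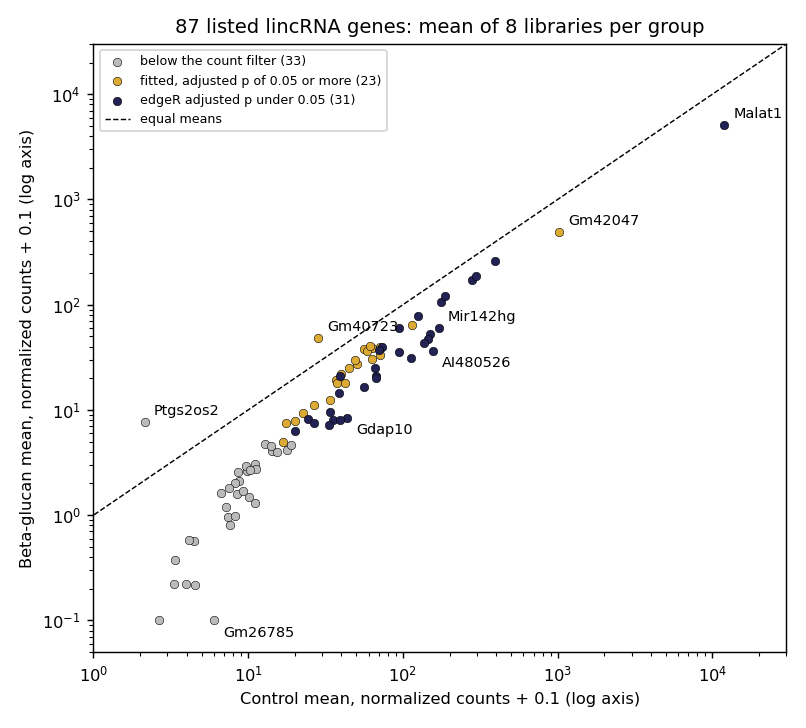
Mean normalized count of each of the 87 lincRNAs in the 8 control libraries (x axis) against the 8 beta-glucan libraries (y axis), both on log axes after adding 0.1. The points of 85 lincRNAs lie below the dashed line of equal means, and those of Ptgs2os2 and Gm40723 lie above it.

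The authors' log2 fold change had a median of -1.66 over the lincRNAs and ran from -4.99 to 1.88. It was -0.47 over all listed genes and -0.39 over the coding ones. It was -1 or lower in 64 lincRNAs, or 73.6%, beside 13.4% of the coding genes, and -2 or lower in 28. A rarely read gene has to differ by a larger fold to be listed, so the fold was also set against coding genes of like abundance.

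Below 10 normalized counts, 96.8% of 31 lincRNAs and 92.0% of 87 coding genes were lower with beta-glucan, with median log2 fold changes of -2.49 and -2.68. From 10 to 30 counts, all 19 lincRNAs and 81.1% of 127 coding genes were lower, with medians of -1.68 and -1.41. From 30 to 100 counts the shares were 96.3% of 27 and 69.2% of 224, and the medians -0.90 and -0.74. From 100 to 300 counts, all 7 lincRNAs were lower and 59.6% of 411 coding genes, with medians of -0.69 and -0.45. At 300 or more all 3 lincRNAs and 55.0% of 1731 coding genes were lower, with medians of -1.04 and -0.31. The share of coding genes that were lower thus declined with abundance and that of lincRNAs stayed at 96.3% or above in these bins. The median of lincRNAs was below that of coding genes in each bin but the lowest. The bins above 100 counts hold 10 lincRNAs in all.

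**Figure D2:**
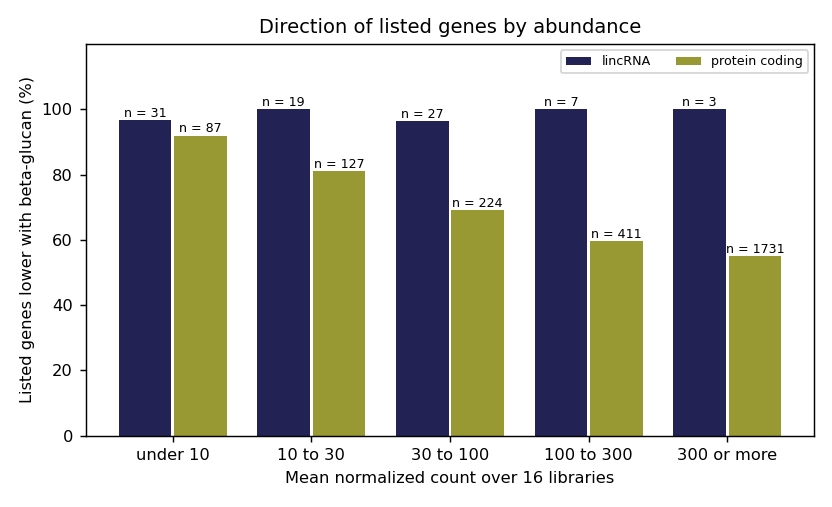
Percentage of listed genes that were lower with beta-glucan (y axis) by mean normalized count over 16 libraries (x axis), for lincRNAs (dark bars) and coding genes (light bars), with the number of genes above each bar. The bars of lincRNAs stay at 96.3% or higher and those of coding genes go from 92.0% to 55.0%.

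Other noncoding gene types in the table were lower about as often. Genes of the type TEC, which await experimental evidence, were lower in 112 of 114 cases, antisense genes in 98 of 100, processed transcripts in 53 of 55, and sense-intronic genes in 20 of 20. Processed pseudogenes were lower in 32 of 52. The median log2 fold changes were -2.4, -2.0, -1.47, -1.74 and -1.68 in that order. The excess of lower genes was thus seen in other noncoding types as well as in lincRNAs.

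The read counts were refitted with edgeR's quasi-likelihood test, with p adjusted over all 17130 genes (Benjamini-Hochberg). Of the 87 lincRNAs, 54 had enough reads for the fit and 33 did not. An adjusted p under 0.05 was found for 31, all of them lower, and not for 23. Over the 2738 listed genes that were fitted, 68.7% reached it in either direction, 42.8% as lower and 25.9% as higher. Among the 54, 53 were lower, and the median edgeR log2 fold change was -1.22, beside -0.41 over all listed genes. Without controls 2 and 3 the test called 13 lincRNAs, and 22.9% of all listed genes fitted. With library sizes computed anew by TMM it called 20 lincRNAs, and 53.4% of the listed genes, so both shares went down in lincRNAs and in the listed genes as a whole. TMM moved the median of all listed genes from -0.41 to -0.16. It was computed from the listed genes only, of which 64.9% were lower, so its scaling is distorted by the listing. It therefore cannot decide whether a fall depends on normalization, and the same holds for the TMM values below.

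In 7 lincRNAs the ranges of both groups were separate, which is 8.05%, near the 7.52% of all listed genes. The 3 most abundant of them were Gm21781, Gm17275 and 4932422M17Rik. Gm21781 had 104, 144 and 218 normalized counts as its lowest, median and highest control values and 14.5, 55.9 and 72.3 with beta-glucan. Gm17275, which overlaps the coding gene H3f3a on the opposite strand, had 37.7, 54.3 and 125 in controls and 12.5, 22.5 and 26.0 with beta-glucan. In both, every control library was above every beta-glucan library. 4932422M17Rik had 15.2, 34.1 and 69.3 in controls and 0.999, 7.45 and 14.3 with beta-glucan. The edgeR log2 fold changes of the 3 were -1.49 ± 0.26 (SE, adjusted p = 0.0025), -1.67 ± 0.29 (0.00242) and -2.12 ± 0.39 (0.00299), in the same order. Without controls 12 and 13 the groups did not overlap in 23 lincRNAs. With TMM there were 5, while the share of all listed genes was 9.74%. Leaving out 1 library gave 7 to 12, with 12 without control 12 and 11 without control 13. The share of all listed genes also went up, to 38.7% without controls 12 and 13, 17% without control 12 and 10.3% without control 13.

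Malat1 (ENSMUSG00000092341, chr19:5795690-5802672, minus strand) had 20990, 15651, 20389, 9021, 8734, 8684, 5283 and 6623 normalized counts in controls 2, 3, 5, 7, 9, 10, 12 and 13. It had 7743, 6855, 3345, 4478, 4550, 6150, 4974 and 2511 in beta-glucan libraries 5, 6, 7, 8, 9, 10, 12 and 13. Controls 2, 3 and 5 were the highest of all, and controls 12 and 13 lay within the range of the beta-glucan libraries. The level per length was 95.2 ± 49.5 FPKM in controls and 40.5 ± 14 with beta-glucan (SD, n = 8 each). Malat1 fell by 1.23 ± 0.29 on the log2 scale (SE, edgeR adjusted p = 0.0106). Without controls 2 and 3 the log2 fold change was -0.95 and the adjusted p was 0.0625.

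Mir142hg (ENSMUSG00000084796) had 66.0, 170 and 297 normalized counts as its lowest, median and highest control values, and 27.0, 67.9 and 77.3 with beta-glucan. Controls 9 and 10 were the only controls within the beta-glucan range. It fell by 1.51 ± 0.31 on the log2 scale (SE, edgeR adjusted p = 0.00556), from 35.2 ± 17.8 to 12.3 ± 3.99 FPKM (SD, n = 8 each). Mir142b, the precursor annotated on the opposite strand of the same hairpin, had a mean of 27.9 ± 20.7 normalized counts in controls and 8.11 ± 6.50 with beta-glucan. A further gene close by, Tspoap1, a partner of the mitochondrial protein TSPO, starts 4964 bases downstream of the Mir142hg start and had an authors' log2 fold change of -1.10. The edgeR log2 fold change of Tspoap1 was -1.09 ± 0.39 (SE) and did not pass, with an adjusted p of 0.0797.

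Gm26532 (ENSMUSG00000097296) had 45.4, 134 and 242 normalized counts as its lowest, median and highest control values, and 10.5, 37.2 and 125 with beta-glucan. The highest beta-glucan value was that of library 9, and the other 7 were at 56.3 or lower. It fell by 1.66 ± 0.44 on the log2 scale (SE, edgeR adjusted p = 0.0205). The precursors Mir23a and Mir27a, 327 and 161 bases upstream of it, were also listed. Mir23a had a mean of 15.8 ± 6.11 normalized counts in controls and 2.02 ± 2.49 with beta-glucan, and Mir27a had 7.44 ± 3.36 and 2.05 ± 2.5 (SD, n = 8 each). Their authors' log2 fold changes were -2.97 and -1.87. Without controls 2 and 3 the edgeR adjusted p of Gm26532 was 0.106.

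The remaining lincRNAs of the list of known ones were mostly scarce. Mirt1 (ENSMUSG00000097636), named for mouse heart after infarction, had 26.6, 53.0 and 81.4 normalized counts as lowest, median and highest control values and 1.05, 12.9 and 42.9 with beta-glucan. It fell by 1.75 ± 0.42 on the log2 scale (SE, edgeR adjusted p = 0.0123). Only beta-glucan library 9 of its group was above the lowest controls. Pvt1 (ENSMUSG00000097039), the neighbour of the growth regulator Myc, had 64.0, 99 and 116 in controls and 40.5, 56.9 and 88.0 with beta-glucan.

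The edgeR log2 fold change of Pvt1 was -0.66 ± 0.19 (SE, adjusted p = 0.0349). With 1 library left out, the adjusted p was above 0.05 in 10 of 16 fits, namely without control 2, 3, 5, 7 or 9 or without beta-glucan library 7, 8, 10, 12 or 13, and was at most 0.0724. With TMM the log2 fold change was -0.42 and the adjusted p was 0.331, and without controls 2 and 3 they were -0.57 and 0.148. Snhg10 (ENSMUSG00000113722), which overlaps the Cajal body RNA gene Scarna13 and the microRNA gene Mir3069 on the same strand, was below the count filter. It had a mean of 15.2 ± 14.6 normalized counts in controls and 3.85 ± 3.70 with beta-glucan (SD, n = 8 each), where 3 libraries had 0 reads. Control 12 was highest with 44.9 and control 9 lowest with 0.919, so that the groups overlapped. Of a list of 64 named long noncoding RNAs, 6 were in the table as lincRNAs, 5 of them lower, and a further 6 were there under another gene type. The list was made with earlier results known.

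Ptgs2os2 (ENSMUSG00000097754, chr1:150159043-150164948, minus strand) lies near Ptgs2, the gene of cyclooxygenase 2, and regulates immune genes in mouse macrophages. It had 0, 3.05, 1.00, 3.49, 3.68, 2.16, 2.93 and 0 normalized counts in controls 2, 3, 5, 7, 9, 10, 12 and 13. It had 8.68, 10.2, 7.27, 15.0, 5.50, 2.76, 8.41 and 2.86 in beta-glucan libraries 5, 6, 7, 8, 9, 10, 12 and 13. Of these, 6 were above every control, and libraries 10 and 13 lay within the control range. The authors' deposited table gave a log2 fold change of 1.88 with an adjusted p of 0.0244, and the counts were too low for the edgeR fit. The level per length was 0.0652 ± 0.0483 FPKM in controls and 0.242 ± 0.129 with beta-glucan (SD, n = 8 each). Ptgs2 is 50815 bases away and was not in the table.

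Gm40723 (ENSMUSG00000112134, chr10:83344513-83351079, plus strand) had 16.2, 26.7 and 47.6 normalized counts as its lowest, median and highest control values, and 27.0, 39.5 and 91.5 with beta-glucan. The groups overlapped, with control 13 above 5 of the beta-glucan libraries. The edgeR log2 fold change was 0.75 ± 0.29 (SE) and the adjusted p was 0.105. It was 0.0484 without control 13, and 0.027 without controls 12 and 13.

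**Figure D3:**
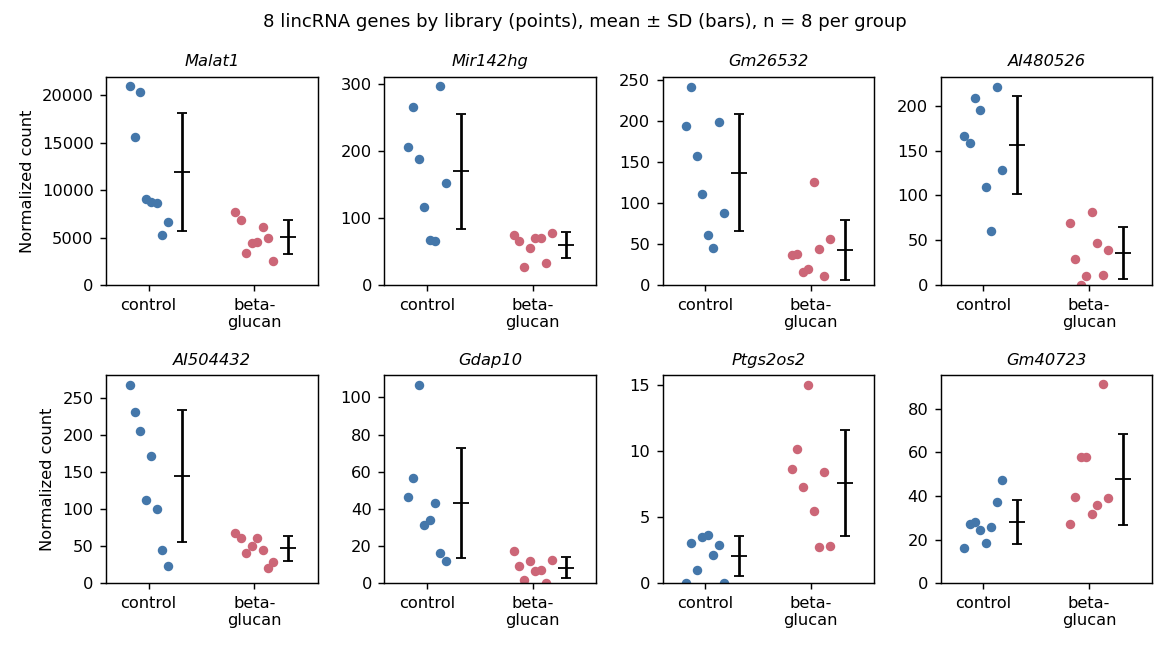
Normalized counts of 8 lincRNAs in each library (y axis), with points for the 8 control and 8 beta-glucan libraries in order of their numbers and bars for the mean ± SD. Malat1, Mir142hg, Gm26532, AI480526, AI504432 and Gdap10 are lower with beta-glucan, with some overlap between the groups in each, and Ptgs2os2 and Gm40723 are higher.

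Among lincRNAs with a mean of at least 20 normalized counts in the higher group, Gdap10 (ENSMUSG00000096954) had the largest decrease. Its lowest, median and highest control values were 12.1, 38.6 and 107 normalized counts, and 0, 8.28 and 17.4 with beta-glucan. It fell by 2.34 ± 0.51 on the log2 scale (SE, edgeR adjusted p = 0.00778). It lies within Nampt on the same strand, the gene of an enzyme of NAD synthesis, which was not in the table. Gm16907 (ENSMUSG00000097242), which overlaps Fancc on the same strand and 2010111I01Rik on the opposite one, had 21.5, 103 and 217 in controls and 10.4, 27.3 and 54.4 with beta-glucan. It fell by 1.85 ± 0.41 on the log2 scale (SE, edgeR adjusted p = 0.00825).

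A group of 3 lincRNAs on chromosome 5 lay together upstream of Setd1b, a methyltransferase for lysine 4 of histone H3. AI480526 (chr5:123133723-123141666, minus strand) starts 527 bases from the Setd1b start, and the other lincRNAs, Gm38102 and 4932422M17Rik, lie within it on the plus strand. AI480526 had 60.6, 163 and 221 normalized counts as lowest, median and highest control values, and 0, 34.4 and 81.4 with beta-glucan. Gm38102 had 23.8, 33.6 and 56.8 in controls and 0, 5.51 and 24.2 with beta-glucan. All 3 were lowest in beta-glucan library 7 or 8. AI480526 fell by 2.11 ± 0.49 and Gm38102 by 2.27 ± 0.57 on the log2 scale (SE, edgeR adjusted p = 0.0107 and 0.016). Setd1b itself had 603, 965 and 1359 in controls and 466, 639 and 714 with beta-glucan, and fell by 0.67 ± 0.15 on the log2 scale (SE, edgeR adjusted p = 0.00755). Without controls 2 and 3 the adjusted p of Gm38102 was 0.0537. Because these lincRNAs overlap on opposite strands, reads counted without strand could not be assigned to one of them.

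In 2 lincRNAs every beta-glucan library had 0 reads. Gm26785 (ENSMUSG00000097390) had a mean of 5.89 ± 4.07 normalized counts in controls (SD, n = 8), with 0 in control 7, and was at least 15.7-fold lower with beta-glucan. 0610043K17Rik (ENSMUSG00000087361) had a mean of 2.53 ± 2.19 and was at least 6.73-fold lower. The bounds take a floor of 3 counts over the whole beta-glucan group and cover counting error in that group only. The control mean was taken as it stands, so its counting error and spread are not covered. At least 1 library of the 16 had 0 reads in 43 of the 87 lincRNAs.

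The libraries of a group differed in their lincRNA levels. For the 46 with a mean of at least 20 normalized counts, log2(count + 1) was centred on each gene's mean over the 16 libraries. The median over the 46 was between 0.30 (control 10) and 1.04 (control 5) in controls, and between -0.93 (library 7) and -0.13 (library 9) with beta-glucan. The lincRNAs other than Malat1 summed to between 4090 and 7499 normalized counts in controls and between 1931 and 3496 with beta-glucan. Because nearly all lincRNAs were listed as lower, a split between the groups follows from the listing. Controls 2, 3, 5 and 7 were at 0.70 or above and controls 9, 10, 12 and 13 at 0.34 or below.

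**Figure D4:**
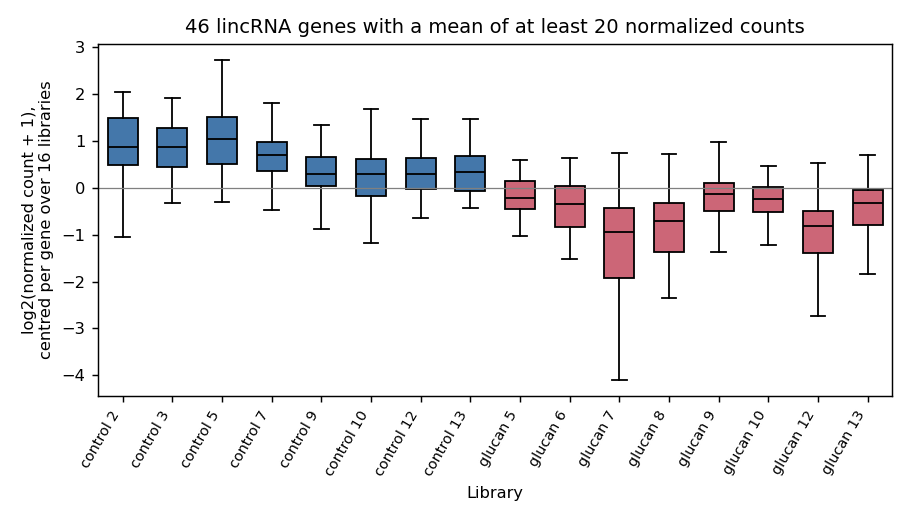
Distribution over 46 lincRNAs of log2(normalized count + 1), centred per gene over the 16 libraries (y axis), for each library (x axis), with boxes from the lower to the upper quartile, a line for the median and whiskers to the most extreme values within 1.5 box lengths. The medians of the 8 controls run from 0.30 to 1.04 and those of the beta-glucan libraries from -0.93 to -0.13.

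Other measures also differed between the groups. Listed antisense genes summed to between 4881 and 7216 normalized counts in controls and between 3291 and 4382 with beta-glucan. The TEC genes summed to between 1453 and 4921 in controls and between 360 and 1298 with beta-glucan, and sense-intronic genes to between 337 and 715 and between 88.2 and 293. Fosb, an immediate-early gene, had 1746 and 1329 normalized counts in controls 2 and 3, and between 125 and 760 in the other controls. It had between 17.9 and 247 with beta-glucan. The antisense, TEC and sense-intronic genes and Fosb were in the table because they differed between these groups, so a gap between the groups follows from the listing. Within the controls the order was not always shared, since Fosb had 224 in control 7 and 486 in control 10, where the lincRNA medians were 0.70 and 0.30. The part of these in the lincRNA differences was not tested.

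Only markers that differed between the groups are in the table. It therefore cannot check the macrophage label, and gaps between the groups in listed markers follow from the listing. Of 14 macrophage markers 8 were listed, among them the M-CSF receptor gene Csf1r and Adgre1, and the rest were not in the table. The 8 summed to between 107424 and 205002 normalized counts in controls and between 92660 and 105984 with beta-glucan, with 7 of them lower and 1 higher. Of 6 monocyte markers, F13a1 and Fn1 were listed and summed to between 140 and 1071 in controls and between 39.6 and 160 with beta-glucan. Of 6 B cell markers, Cd79b and Ighm were listed and summed to between 231 and 405 and between 86.7 and 226. Csf3r, of 10 neutrophil markers, ran from 1629 to 2492 and from 918 to 1430, and Kdr, of 5 endothelial markers, from 30.1 to 87.4 and from 69.7 to 155. The other 7 marker lists had no member in the table, so whether their markers were at 0 is not known here. In such bulk samples fewer cells of a type and less RNA per cell cannot be told apart, and the part of other cells in the lincRNA differences was not tested.

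All 87 were found in the GENCODE M21 annotation, where 27 overlapped a coding gene in spite of the name intergenic, 19 of these on the opposite strand only and 8 on the same strand. With noncoding genes included, such as the microRNA within Mir142hg, 50 overlapped another annotated gene and 37 did not. The strand setting of the read counting is not given in the sources used here, so reads of a lincRNA and of the gene it overlaps may not be told apart. Of the 37 without overlap, 35 were lower, with a median authors' log2 fold change of -1.36, and 8 of the 23 that edgeR fitted had an adjusted p under 0.05. All 50 with an overlap were lower, with a median of -1.77, and 23 of the 31 fitted passed, beside 68.7% of all listed genes fitted. Ptgs2os2 and Gm40723 were thus both among the lincRNAs without overlap.

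The nearest listed coding gene was within 10 kb of 35 lincRNAs, within 100 kb of 52 and within 1000 kb of 79. LincRNA and neighbour differed in the same direction in 25 of the 35 pairs (71.4%), in 33 of the 52 (63.5%) and in 48 of the 79 (60.8%), by the authors' log2 fold changes. Pairs of listed coding genes and their nearest listed coding gene had the same direction in 61.5% of 590, 59.8% of 1429 and 58.0% of 2383. Since nearly all lincRNAs were lower, the first shares nearly equal the shares of neighbours that were lower, 68.6%, 61.5% and 60.8%, beside 59.5% of all listed coding genes. No test was made of these shares. The nearest annotated coding gene was itself listed for 32 lincRNAs and not for 55.

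**Figure D5:**
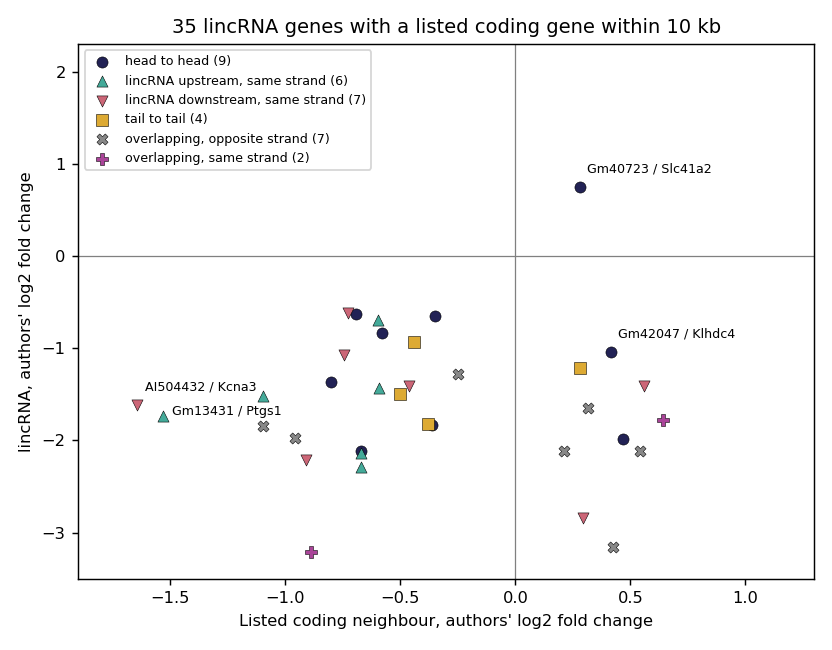
Authors' log2 fold change of the nearest listed coding gene (x axis) and of the lincRNA (y axis) for the 35 lincRNAs with a listed coding gene within 10 kb, with symbols for their arrangement. All but Gm40723 lie below 0 on the y axis, and 24 of the 35 neighbours lie left of 0 on the x axis.

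Arrangement varied among the 35 pairs. The 4 pairs that lay tail to tail had 3 lower neighbours and are not described one by one. The 35 lincRNAs had 33 distinct neighbours, of which 22 were lower, because Setd1b was the neighbour of 3. The 6 lincRNAs that lay upstream of the coding gene on the same strand all had a neighbour that was lower, with Setd1b counted for both Gm38102 and 4932422M17Rik. Of these, Gm13431 (chr2:36216777-36222934, plus strand) ends 7491 bases before Ptgs1, the gene of cyclooxygenase 1. Gm13431 had 13, 71.9 and 123 normalized counts as lowest, median and highest control values, and 3.11, 19.2 and 40.1 with beta-glucan. It fell by 1.73 ± 0.43 on the log2 scale (SE, edgeR adjusted p = 0.0153). Ptgs1 had 1203, 2062 and 3333 in controls and 614, 713 and 976 with beta-glucan, without overlap, and fell by 1.53 ± 0.18 (SE, edgeR adjusted p = 0.000163). Without controls 2 and 3 the adjusted p of Gm13431 was 0.0716.

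Of the 7 lincRNAs downstream of the coding gene on the same strand, 5 had a lower neighbour. AI504432 (chr3:107039504-107054347, plus strand) begins 1433 bases after Kcna3, the gene of the potassium channel Kv1.3. AI504432 had 23.4, 142 and 267 normalized counts in controls and 21, 47.5 and 68.5 with beta-glucan, with controls 12 and 13 inside the beta-glucan range. Its log2 fold change was -1.61 ± 0.39 (SE, edgeR adjusted p = 0.0137, and 0.0883 without controls 2 and 3). Kcna3 had 1.95, 28.9 and 49.8 in controls and 0, 8.03 and 16.3 with beta-glucan, with a log2 fold change of -1.62 ± 0.60 and an adjusted p of 0.0934.

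Gm15675, minus strand, lies 1835 bases downstream of Cd55, which protects cells from complement. Gm15675 had 8.27, 27.5 and 73.4 normalized counts in controls and 1.04, 6.98 and 16.6 with beta-glucan, and fell by 2.19 ± 0.48 on the log2 scale (SE, edgeR adjusted p = 0.00762). Cd55 had 176, 261 and 474 in controls and 112, 169 and 237 with beta-glucan, and fell by 0.91 ± 0.22 (SE, edgeR adjusted p = 0.0121). Gm44751 lies 589 bases beyond Ctsc, the gene of the lysosomal protease cathepsin C, and the authors' log2 fold changes were -1.07 and -0.74. In the edgeR fit Gm44751 did not pass (adjusted p = 0.133, and 0.0412 without controls 12 and 13), and Ctsc did (0.0107). AC087898.2 and Gm26792 were lower while their upstream neighbours Abcf3 and Fbxl15 were higher.

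The 9 pairs that start head to head had 6 lower neighbours. Gm17586 (chr11:120633768-120635125, plus strand) starts 168 bases from Mafg, a small Maf protein that pairs with Nrf2 and Bach1, so that the promoter printed above also holds the Mafg start. Gm17586 had 188, 307 and 385 normalized counts in controls and 121, 200 and 240 with beta-glucan, and fell by 0.65 ± 0.16 on the log2 scale (SE, edgeR adjusted p = 0.0159). It was not called without controls 2 and 3 (adjusted p = 0.0863) or with TMM (log2 fold change -0.42, adjusted p = 0.192). Mafg had 2917, 3743 and 5111 in controls and 2386, 3048 and 3941 with beta-glucan, with a log2 fold change of -0.35 ± 0.13 and an adjusted p of 0.0825.

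5033430I15Rik and Atxn1 start 245 bases apart, with authors' log2 fold changes of -1.36 and -0.80, and 5031425E22Rik and the chromatin regulator Kmt2e start 172 bases apart, with -0.63 and -0.69. Gm17705 and Prrc2a start 222 bases apart, with -1.84 and -0.36. Gm20342 starts 2451 bases from Ino80d, a subunit of the INO80 chromatin remodeller, with -0.83 and -0.58. In each of these 4 pairs both genes were lower by the authors' test. In the edgeR fit the adjusted p was 0.102 for 5033430I15Rik, 0.11 for Gm20342 and 0.062 for Prrc2a, and Gm17705 was not fitted. It was 0.00546 for Atxn1, 0.0347 for Kmt2e and 0.024 for Ino80d. It was 0.0318 for 5031425E22Rik, and above 0.05 in 7 of the 16 fits with 1 library left out, namely without control 3, 5 or 7 or beta-glucan library 6, 7, 8 or 12, at most 0.0703. With TMM it was 0.342, and without controls 2 and 3 it was 0.0928. Gm40723 starts 6631 bases from Slc41a2, a magnesium transporter, and this was the pair in which both were higher, with 0.75 and 0.28. Neither passed in the edgeR fit, with adjusted p of 0.105 and 0.0533.

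In the other two head to head pairs the lincRNA was lower and the coding gene higher. Snhg10 starts 409 bases from Glrx5, a mitochondrial protein of iron-sulfur cluster assembly. Glrx5 had 367, 409 and 819 normalized counts in controls and 506, 687 and 735 with beta-glucan, with an edgeR log2 fold change of 0.47 ± 0.15 (SE, adjusted p = 0.0516). Gm42047 (chr8:121833247-121841178, plus strand), the lincRNA with the most reads after Malat1, overlaps the coding gene Gm20388 on the same strand, which was not listed. It starts 3678 bases from Klhdc4. It had 378, 1034 and 1808 normalized counts in controls and 243, 378 and 1009 with beta-glucan, with a log2 fold change of -1.04 ± 0.34 and an edgeR adjusted p of 0.0566. Klhdc4 had 432, 487 and 569 in controls and 515, 634 and 867 with beta-glucan, and rose by 0.42 ± 0.10 on the log2 scale (SE, edgeR adjusted p = 0.0142).

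Where the lincRNA overlapped a listed coding gene on the opposite strand, 3 of 7 neighbours were lower. Gm26669, which overlaps Zfp36l1, a protein that promotes decay of mRNAs with AU-rich elements, had means of 10.1 ± 8.24 normalized counts in controls and 2.56 ± 3.36 with beta-glucan (SD, n = 8 each), and Zfp36l1 had 1226 ± 483 and 631 ± 104. Gm45752, opposite Dpep2, and AC154378.1, opposite Fam120b, were the others with a lower partner. Gm26582 had 11 ± 7.13 and 1.19 ± 1.97, with no overlap between groups and 0 reads in 5 beta-glucan libraries, while the overlapping kinase gene Cdkl2 had 154 ± 23.4 and 207 ± 29.2. Gm16755 had 8.65 ± 4.10 and 2.0 ± 2.49, while Mrpl12, of the mitochondrial ribosome, had 348 ± 91.0 and 505 ± 99.8. F420014N23Rik and Pip4k2c, and Gm26530 and Rtca, also had opposite directions. On the same strand Gm26890 and the splicing regulator gene Clasrp were both lower, with authors' log2 fold changes of -3.21 and -0.89, and Gm26581 was lower and Raet1e, the gene of a ligand of the receptor NKG2D, higher, with -1.78 and 0.64.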

How the data were processed

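RNA sequencing values of 16 macrophage libraries, 8 control and 8 beta-glucan, were taken from the deposited comparison table. Tools named in the submitters' processing notes are STAR 2.5, HTSeq 0.6.1, CASAVA and DESeq2, with the build mm10. The annotation release and the strand setting are unknown here. The deposited read counts are whole numbers per gene, not normalized. The deposited normalized counts, a signal, are the authors' read counts divided by a size factor of 0.864 to 1.16 per library. The deposited FPKM values are the normalized counts per kilobase, scaled to 17937135 reads. The authors' log2 fold changes and p-values, unadjusted and adjusted, are beta-glucan over control. The table lists only the 3071 genes with an adjusted p under 0.05 of 17130 tested, a number computed from p, adjusted p and rank and not stated by the authors, and reads on them came to between 4382665 and 5600727 per library.

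LincRNAs were the genes of that type in the table. edgeR 4.0.16 in R 4.3.3 (glmQLFit, glmQLFTest, filterByExpr, two-sided, no block) was fitted on all listed genes with the authors' size factors as library scaling. Its p was adjusted over 17130 genes by Benjamini-Hochberg. The test gives no SE, so the SE printed is the size of the log2 fold change divided by the square root of the F statistic. TMM, new size factors, DESeq2 1.42.0, no filter, a replicate block and left-out libraries were alternatives. TMM and the new size factors were computed from the listed genes only. Controls 2 and 3, and 12 and 13, were left out in pairs because earlier results of these data set them apart. Neighbour directions came from the authors' log2 fold changes, because 33 lincRNAs were not fitted by edgeR. Gaps were between gene bodies. The rule for named genes follows, and not all genes that met it are described in the text. Named genes were those with the 6 largest changes each way (mean of at least 20 normalized counts in the higher group), the 6 highest FPKM, the 4 smallest p each way, known lincRNAs, and those with a listed coding gene within 10 kb and that gene. Genes named otherwise were the 2 with 0 reads in every beta-glucan library, listed microRNA precursors beside a lincRNA, genes that overlap or lie nearest to a named lincRNA, cell type markers and Fosb, the last chosen with its values known. The lincRNAs, lists and tests were chosen with earlier results of these data known. Tables and figures were made in Python 3.11.15 with pandas 2.3.3 and matplotlib 3.10.9.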

Additional observations from a re-analysis of the deposited data

Results flagged for a closer look

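Among 90 groups of 8 libraries, from the 45 named lincRNAs in each condition, 4 held a library whose gap to the next, divided by the group's range, was above the critical value of Dixon's test for 8 values. Chance alone flags about 1 in 20 groups. Gm26532 had 125 normalized counts in beta-glucan library 9, and the next value was 56.3. Gm26792 had 115 in control 5, with 68.2 next. Gm26767 had 27.6 in beta-glucan library 10, with 13.4 next, and F420014N23Rik had 47.5 in control 2, with 24.1 next.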

How the results depend on the processing

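The 31 called lincRNAs, beside 68.7% of all listed genes fitted, became 20 with TMM (53.4%) or with new DESeq2 size factors (57.2%). Both of these scalings were computed from the listed genes only and are distorted by the listing. The calls also changed under other settings. The 31 became 76 with the DESeq2 Wald test (95.8%) and 54 with p adjusted over the listed genes only (100%). They became 55 without a filter (72.1%) and 13 without controls 2 and 3 (22.9%). Leaving out 1 library gave 25 to 36 calls (41.9% to 82.7%), and leaving out controls 12 and 13 gave 39 (83.0%). The median log2 fold change of -1.22 was -1.66 with the DESeq2 Wald test and without a filter, where all 87 lincRNAs have a value. It was -1.29 to -1.08 with 1 library left out, -1.09 without controls 2 and 3 and -1.32 without controls 12 and 13. With TMM it was -0.95 and with new size factors -0.99. Over the 12 libraries with shared numbers it was -1.02, with or without a replicate block. The 7 lincRNAs without overlap, beside 7.52% of all listed genes, were 23 without controls 12 and 13 (38.7%), 5 with TMM (9.74%), and 7 to 12 with 1 library left out (7.68% to 17%). The share of lincRNAs with the direction of the nearest listed coding gene was 63.5% with any library left out. Both genes of each pair were listed for a difference between these same libraries, so this share could hardly change. The replicate block, over the 12 libraries of the 6 shared numbers, called 6 lincRNAs (13% of all listed genes), 5 of them among the 31. The same 12 libraries without a block, an alternative chosen after seeing the data, called 1 (2.48%). The labels do not say that a number pairs libraries, so the numbers were not taken as pairs in the main fit. The deviations of same-numbered libraries had correlations of 0.5, 0.0212, -0.181, -0.0667, 0.212 and 0.272. These correlations and calls do not settle whether the numbers pair libraries. Of the 45 named lincRNAs, the 35 that edgeR fitted kept their direction under these alternatives, and the other 10, below the count filter, were not followed one by one. The 35 were listed for a difference between these same libraries, so a change of direction was hardly possible. The edgeR fit is limited by depth, with 33 lincRNAs below its filter. The cause of these shifts was not tested.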
